A study of Mus musculus with 2 samples.

Results

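The platelet and megakaryocyte genes Pf4, Ppbp, Itga2b, Gp1bb, Gp9 and Cavin2 were followed in single-cell RNA sequencing of mouse bone marrow. They were taken by symbol, as 6 of the 32285 genes counted, and all 6 had UMIs (unique molecular identifiers, 1 per captured RNA molecule) in both libraries. Femoral marrow of 1 wild-type mouse (WT, a littermate carrying the floxed Ddx41 alleles without VavCre and with intact cGas) was compared with that of 1 DKO mouse (VavCre:Ddx41 fl/fl, cGAS-/-), both 2 months old. VavCre acts across the blood lineages and is also expressed in oocytes and endothelial cells, so the loss of Ddx41 in DKO was not limited to megakaryocytes, and the labels give cGAS-/- as a genotype of the whole mouse. With 1 library per genotype there was no replicate: no test between genotypes was made, and every interval below is a 95% interval that covers counting error only.

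Megakaryocytes are the large polyploid marrow cells that shed platelets, which have no nucleus and carry the messenger RNA they received. Their alpha granules store the chemokines encoded by Pf4 (platelet factor 4, CXCL4) and Ppbp (pro-platelet basic protein, the precursor of CXCL7). Itga2b encodes integrin alpha IIb (CD41), which pairs with beta 3 as the fibrinogen receptor and is also made by early progenitors and by basophils and mast cells. Gp1bb and Gp9 encode subunits of the GPIb-IX-V receptor for von Willebrand factor, and Cavin2 encodes a membrane coat protein of caveolae. The genes are driven in this lineage by GATA and ETS factors such as GATA1 and FLI1.

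The genes lay at 5 places of the genome (GRCm38). Pf4 (chr5:90772435-90773383, plus strand) and Ppbp (chr5:90768518-90770063, plus strand) were neighbours 2371 bp apart in the CXC chemokine cluster. Itga2b was at chr11:102453297-102470122 (minus strand, 30 exons in its longest transcript), Gp9 at chr6:87778072-87779768 (plus strand) and Cavin2 at chr1:51289126-51302960 (plus strand). Gp1bb (chr16:18620317-18622403, minus strand) overlapped Sept5 on the same strand, whose reads could be shared with it, and Sept5 had 6 WT and 1 DKO UMIs in megakaryocyte-like cells. In all other cells Sept5 had 471 WT and 333 DKO UMIs, against 65 and 37 of Gp1bb, so the Gp1bb levels outside the class carry this limit. Cavin2 overlapped the antisense gene 9330175M20Rik, which had 14 and 3 UMIs in megakaryocyte-like cells.

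The promoters of 4 of the genes are shown for their GATA and ETS words, from 250 bases before to 50 bases after the annotated start, 5′ to 3′ on the strand of the gene, from RefSeq (GRCm38.p6). Capitals mark a GATA word (AGATAA with its variant TGATAA, and AGATAG with its variant TGATAG) or an ETS word (AGGAAG with its variant CGGAAG). The words were searched on both strands, and no capital base belonged to words of both kinds. The windows were chr5:90772185-90772484 (Pf4, plus strand), chr16:18622354-18622653 (Gp1bb, minus strand), chr11:102469834-102470133 (Itga2b, minus strand) and chr5:90768268-90768567 (Ppbp, plus strand). For Itga2b the RefSeq start lies inside the gene span given above, which is from another annotation, so nearly all of its window is within that span.
Pf4: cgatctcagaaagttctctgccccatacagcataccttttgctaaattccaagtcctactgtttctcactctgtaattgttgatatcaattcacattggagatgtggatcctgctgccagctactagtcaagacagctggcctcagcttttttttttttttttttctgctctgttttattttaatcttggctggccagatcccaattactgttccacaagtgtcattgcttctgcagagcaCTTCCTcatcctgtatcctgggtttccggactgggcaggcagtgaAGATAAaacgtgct
Gp1bb: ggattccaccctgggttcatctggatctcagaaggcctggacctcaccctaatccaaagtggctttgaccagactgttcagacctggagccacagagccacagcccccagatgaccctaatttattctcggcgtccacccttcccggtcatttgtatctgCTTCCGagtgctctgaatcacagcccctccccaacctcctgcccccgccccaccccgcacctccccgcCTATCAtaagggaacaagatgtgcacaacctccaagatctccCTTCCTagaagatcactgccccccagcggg
Itga2b: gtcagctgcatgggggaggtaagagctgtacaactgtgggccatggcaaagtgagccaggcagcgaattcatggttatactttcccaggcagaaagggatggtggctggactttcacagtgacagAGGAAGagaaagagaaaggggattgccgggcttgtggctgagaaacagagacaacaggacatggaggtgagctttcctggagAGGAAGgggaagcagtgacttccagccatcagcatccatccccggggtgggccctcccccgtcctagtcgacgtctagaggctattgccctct
Ppbp: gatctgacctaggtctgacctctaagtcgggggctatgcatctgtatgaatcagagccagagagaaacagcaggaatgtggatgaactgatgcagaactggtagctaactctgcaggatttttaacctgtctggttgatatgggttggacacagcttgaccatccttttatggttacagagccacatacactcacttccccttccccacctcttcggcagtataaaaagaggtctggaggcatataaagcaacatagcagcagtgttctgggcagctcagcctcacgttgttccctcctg
The Pf4 window held 1 word of each kind, the Gp1bb window 1 GATA and 2 ETS words, the Itga2b window 2 ETS words and the Ppbp window neither. A GATA word was present in 2 of the 6 windows and in 29.76% of 32851 promoters of the same length. An ETS word was present in 5 of the 6 windows, all but Ppbp, against 46.47% of promoters, and both kinds in 2 of the 6 windows against 12.61%. A match describes the letters and is not evidence of binding.

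After filtering, 18726 WT cells (119239857 UMIs, median 4873 per cell) and 13719 DKO cells (114664975 UMIs, median 6900.0) were compared. Ddx41 had 2416 UMIs in WT and 916 in DKO cells, a log2 ratio of DKO over WT of −1.34 (−1.45 to −1.23), and Cgas had 1615 and 830, a log2 ratio of −0.90. Where the 3′ tags of these genes lie relative to the deleted exons is not given in the sources used here, so the remaining UMIs do not measure the completeness of the deletion. The WT file listed all barcodes and the DKO file called cells only, so the cells of the libraries were not called by the same procedure. The called cells of the libraries shared 81 barcodes.

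Megakaryocyte-like cells were found without the 6 genes, from 17 other markers such as Gp6, Vwf and Clec1b, all of which were detected in both libraries. They were 420 WT barcodes, 2.24% of the library (2.04% to 2.47%), and 119 DKO barcodes, 0.867% (0.719% to 1.04%). They held 47518 of the 56579 UMIs of the 6 genes in WT (84.0%) and 29138 of 32043 in DKO (90.9%). The 6 genes together made up 2.23% of the UMIs of the class in WT and 2.99% in DKO. In CPM, the usual scaling of counts to a fixed library total, this was 22296 (22096 to 22498) and 29918 (29576 to 30264), a log2 ratio of 0.42 (0.40 to 0.45). In all other cells the ratio had the opposite sign, with 77.4 CPM in 18306 WT cells, 25.6 CPM in 13600 DKO cells and a log2 ratio of −1.60 (−1.66 to −1.54). In Chromium 3′ libraries 1 UMI stands for 1 molecule whatever its length, so no level was divided by gene length.

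**Figure D1:**
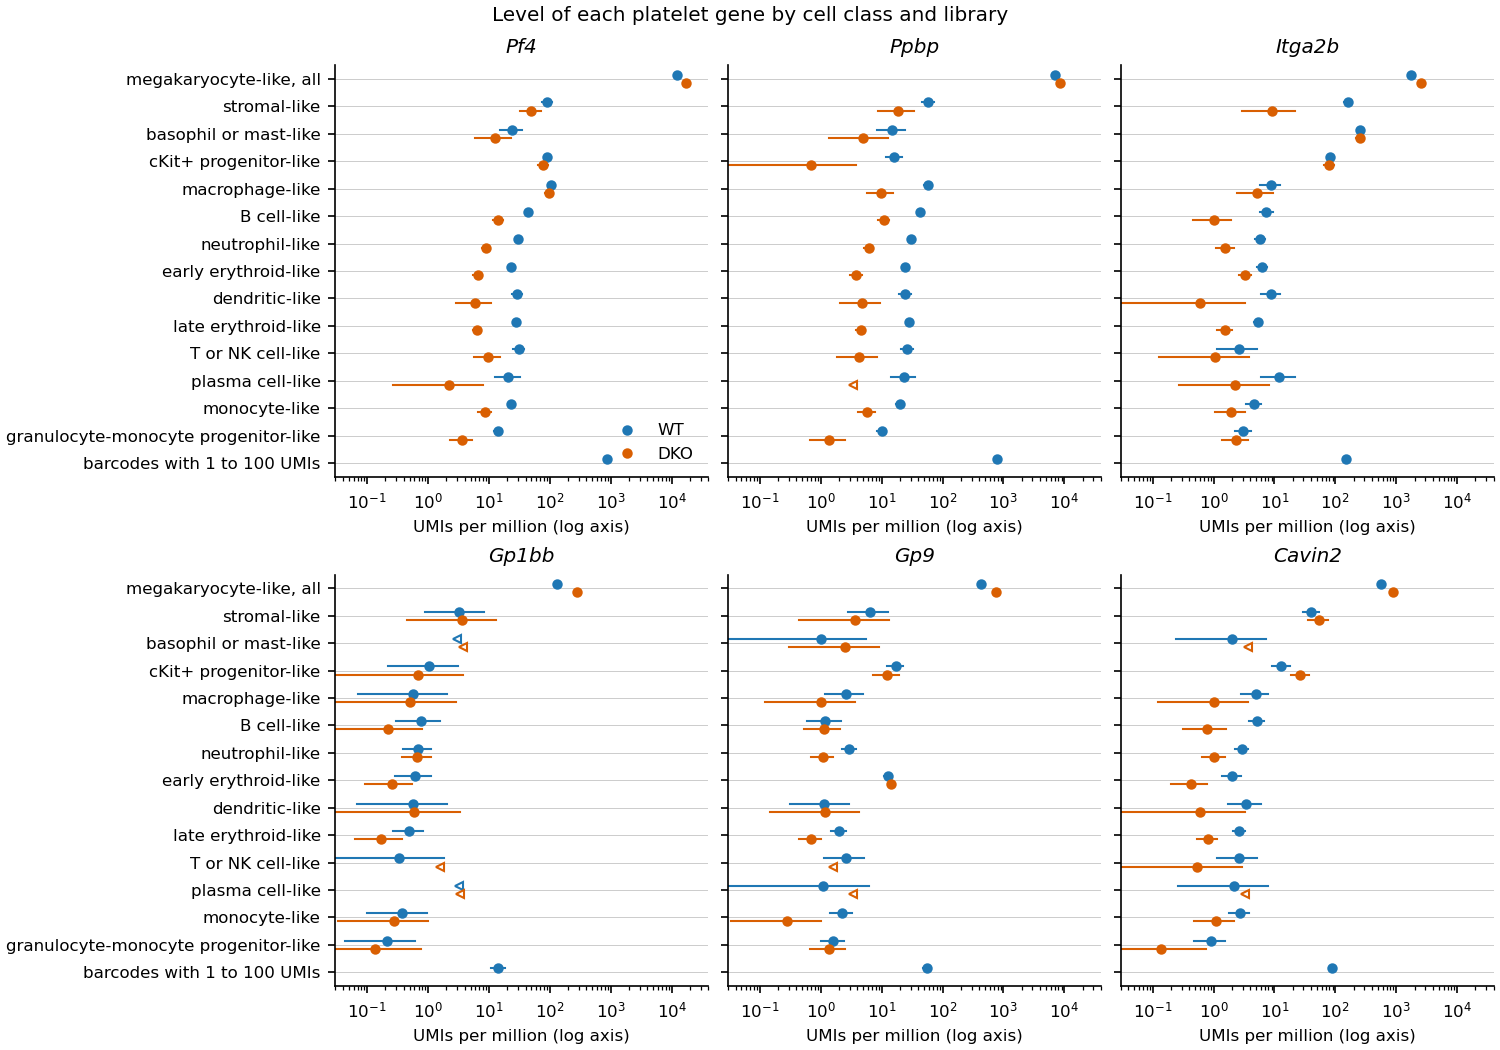
Level of each of the 6 genes by cell class, in CPM on a log axis, with 1 panel per gene. Filled points are WT (blue) and DKO (orange), lines are exact Poisson 95% intervals for counting error, and open triangles mark a count of 0 at the level that 3 UMIs would give. Megakaryocyte-like cells were highest for every gene, Itga2b was also high in basophil or mast-like cells (254.7 and 250.2 CPM), and barcodes with 1 to 100 UMIs were analysed in WT only.

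Pf4 and Ppbp, the chemokine genes, were the most abundant. Pf4 was at 12424 CPM (12275 to 12575) in WT and 17018 CPM (16760 to 17279) in DKO megakaryocyte-like cells, a log2 ratio of 0.45 (0.43 to 0.48). It was detected in 93.6% of WT and 91.6% of DKO cells of the class, with a median of 11192 and 11654 CPM per cell. Ppbp was at 7010.1 CPM in WT and 8467 CPM in DKO, a log2 ratio of 0.27 (0.23 to 0.31), and was detected in 87.1% and 85.7% of cells. In B cell-like cells, which should lack both genes, Pf4 was found in 11.01% of WT and 4.02% of DKO cells at median depths of 2642 and 3784 UMIs, against 1615 and 1040.0 UMIs in the megakaryocyte-like cells. When each cell was thinned to 1000 UMIs, which left out 148 WT and 58 DKO shallower cells of the class, Pf4 was in 82.7% (77.7% to 87.0%) of WT and 82.0% (70.0% to 90.6%) of DKO cells.

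Itga2b was at 1731 CPM in WT and 2535 CPM in DKO megakaryocyte-like cells, a log2 ratio of 0.55 (0.48 to 0.62). It was detected in 50.5% of WT and 58.0% of DKO cells, fewer than the chemokine genes, whose levels were higher. The receptor subunits were less abundant. Gp1bb was at 131 CPM (279 UMIs) in WT and 279 CPM (272 UMIs) in DKO, a log2 ratio of 1.09 (0.85 to 1.34), and Gp9 was at 434 and 742 CPM, a log2 ratio of 0.77 (0.63 to 0.91). Cavin2 was at 565 CPM in WT and 877 CPM in DKO, a log2 ratio of 0.63 (0.50 to 0.76). All 6 ratios were above 0, and 1 of the 6, that of Gp1bb, was past 2-fold. Of 6430 genes of at least 20 CPM in either library, 2.92% were higher and 4.0% lower in DKO by at least 2-fold. The median log2 ratio of the 6 genes was 0.59 and that of all genes tested was 0.18. The direction depended on which barcodes and how many of their UMIs entered. Barcodes above each library's order-of-magnitude UMI threshold were also clustered anew on their own. The megakaryocyte-like class was then another one, of 418 WT and 178 DKO barcodes placed in it by any run. Single runs placed 0 to 313 WT and 0 to 135 DKO barcodes in it, so none could be in it in every run. In this any-run class the 6 genes were at 4193 CPM in WT and 3948 CPM in DKO. The log2 ratio there was below 0 for Pf4 (−0.08), Ppbp (−0.10) and Itga2b (−0.29). In the class as first formed, with each cell thinned to 1000 UMIs, the 6 genes were at 27427 and 27328 CPM. The ratios of Ppbp (−0.11, −0.24 to 0.02) and Itga2b (−0.08, −0.52 to 0.31) were then below 0, and that of Gp1bb was 0.71 (−0.23 to 1.48). In the class as first formed, without thinning, Ddx41 was at 17.8 CPM (38 UMIs) in WT and 7.19 CPM (7 UMIs) in DKO, a log2 ratio of −1.16 (−2.72 to −0.13). Cgas was at 12.2 (26 UMIs) and 12.3 CPM (12 UMIs), a log2 ratio of 0.08 (−1.11 to 1.05).

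Few barcodes held much of these UMIs. The barcode richest in each gene held 13.97% of the class's Pf4 UMIs in WT and 25.0% in DKO, 26.8% and 39.7% of those of Ppbp, 9.24% and 34.7% of Itga2b, 24.7% and 34.6% of Gp1bb, 25.2% and 36.7% of Gp9, and 13.7% and 25.9% of Cavin2. Each DKO value was above the WT one, in a class of fewer barcodes. Gp1bb was detected in 23.1% of WT and 31.9% of DKO cells, Gp9 in 46.9% and 47.1%, and Cavin2 in 63.6% and 64.7%. Thinned to 1000 UMIs, Ppbp was in 71.0% and 65.6%, Itga2b in 36.0% and 39.3%, Gp1bb in 14.7% and 18.0%, Gp9 in 26.8% and 32.8%, and Cavin2 in 38.6% and 50.8% of the cells. The median cell had no Gp1bb or Gp9 UMI in either library.

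The class was made of unlike barcodes. It was split here into barcodes with at least 20% hemoglobin UMIs (70 WT, 13 DKO), barcodes with at least 2% of UMIs from neutrophil genes (24 WT, 2 DKO), and the rest with at least 10000 UMIs (large: 39 WT, 16 DKO) or fewer (small: 287 WT, 88 DKO), with limits set after the values were seen. Hemoglobin genes were 14.8% of the class's UMIs in WT and 7.14% in DKO. Of the 11 late erythroid markers all 11 were detected in the large and small barcodes of each library, and they summed to 11721 and 13834 CPM in the large and small WT barcodes and to 2000 and 9520 CPM in the DKO ones. Without the hemoglobin-rich and neutrophil gene-rich barcodes, the 6 genes were at 27777 CPM in WT and 32320 CPM in DKO, with log2 ratios from 0.11 for Ppbp to 0.88 for Gp1bb.

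The small barcodes were RNA-poor and rich in the chemokine genes. Their median was 1029 UMIs in WT and 818.5 in DKO, and the 6 genes made up 3.67% and 3.73% of their UMIs, 36736 CPM (36191 to 37288) in WT and 37288 CPM (36161 to 38442) in DKO. Pf4 was at 18472 and 18185 CPM (log2 ratio −0.02, −0.09 to 0.05), Ppbp at 14701 and 14762 CPM (0.01, −0.07 to 0.08) and Itga2b at 1554 and 1423 CPM (−0.12, −0.38 to 0.12). These intervals included 0. The Itga2b value turned on 1 WT barcode with 27.5% of the 731 UMIs: without the barcode richest in Itga2b in each library the levels were 1149 and 1313 CPM and the log2 ratio 0.20 (−0.08 to 0.46). Without the barcodes richest in Ppbp its ratio was −0.11 (−0.19 to −0.02). Gp1bb had 102 and 33 UMIs and a log2 ratio of 0.48 (−0.16 to 1.03), while Gp9 was at 757 and 964 CPM (0.36, 0.02 to 0.66) and Cavin2 at 1035 and 1657 CPM (0.68, 0.43 to 0.93). None of the 6 was past 2-fold in the small barcodes, where 11.2% of 6028 genes were higher and 11.2% lower by at least 2-fold. The nuclear RNA Malat1 was present in 150 of the 287 WT and 18 of the 88 DKO small barcodes, at 4103 and 865 CPM, and its part in these values was not tested.

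The large barcodes differed from the small ones in the balance of the genes. In them Pf4 was at 14659 CPM in WT and 18475 CPM in DKO (log2 ratio 0.33, 0.30 to 0.37), Ppbp at 5803 and 8272 CPM (0.51, 0.46 to 0.56) and Itga2b at 2475 and 2943 CPM (0.25, 0.17 to 0.33). Gp1bb was at 138 and 296 CPM (1.10, 0.80 to 1.41), Gp9 at 418 and 782 CPM (0.90, 0.73 to 1.08) and Cavin2 at 556 and 847 CPM (0.61, 0.45 to 0.77). These are levels of pooled UMIs. Per large barcode, the median share of the 6 genes was lower in DKO, with 1.45% in WT and 1.12% in DKO. Again 1 of the 6, Gp1bb, was past 2-fold, against 2.68% of 6936 genes higher and 4.92% lower. Relative to the small barcodes of the same library, Ppbp was lower in the large ones, by a log2 ratio of −1.34 in WT and −0.84 in DKO, Cavin2 was lower by −0.90 and −0.97, and Itga2b was higher by 0.67 and 1.04. The number of Ppbp UMIs per Pf4 UMI was 0.796 and 0.812 in the small and 0.396 and 0.448 in the large barcodes. It was 0.734 and 0.776 in the 19 WT and 5 DKO large barcodes that were megakaryocyte-like in at least 11 of the clustering runs described below. In the other 20 WT and 11 DKO large barcodes, near the border with progenitors, it was 0.0508 and 0.0749. By size, Ppbp per Pf4 was 0.844 in the 142 WT barcodes under 1000 UMIs without much hemoglobin or neutrophil RNA and 0.395 in the 20 barcodes of at least 20000 UMIs, and in DKO it was 0.693 in 54 and 0.451 in 12 barcodes. These values rested on few cells: the richest WT barcode held 8510 of the 27185 UMIs of the 6 genes in large barcodes (31.3%) and the richest DKO one 7244 of 24742 (29.3%). Without these 2 barcodes the large class was at 17878 CPM in WT and 25546 CPM in DKO, and Ppbp per Pf4 was 0.199 and 0.270. Itga2b was then at 2352 CPM in WT and 2113 CPM in DKO, so that its log2 ratio turned to −0.15 (−0.25 to −0.06). Ppbp was at 2447 and 4670.3 CPM (0.93, 0.86 to 1.01), and Gp9, at 229 and 507 CPM (1.14, 0.90 to 1.39), was past 2-fold beside Gp1bb, at 83.3 and 201.5 CPM (1.27, 0.88 to 1.68).

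**Figure D2:**
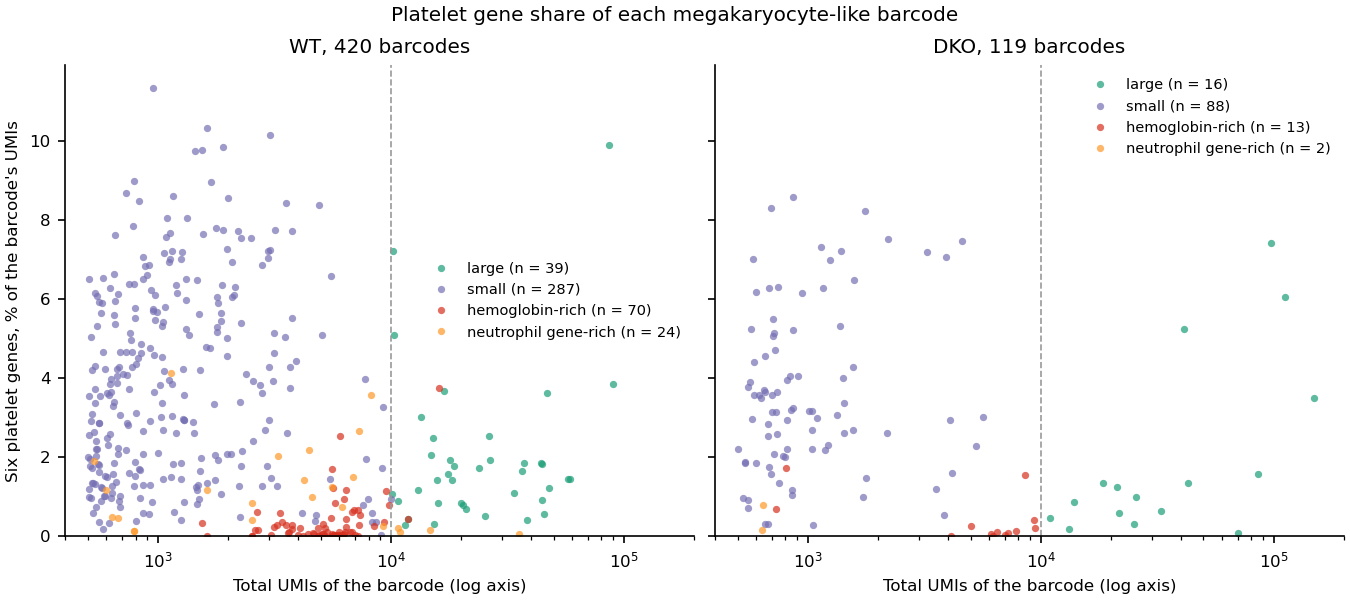
Each megakaryocyte-like barcode by its total UMIs (log axis) and the percent of them that came from the 6 genes, in WT (left, 420 barcodes) and DKO (right, 119 barcodes), coloured by kind; the dashed line is at 10000 UMIs. Most barcodes were small, with medians of 3.72% (WT) and 3.16% (DKO). The few large barcodes had medians of 1.45% (WT) and 1.12% (DKO) and spread from 0.286% to 9.92% in WT and from 0.0780% to 7.42% in DKO.

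The genes differed in large barcodes near the border with progenitors. Because the clustering varied from run to run, it was repeated 20 times, and a barcode counted as megakaryocyte-like if any run placed it in a cluster of that name. Of the large barcodes, 19 WT and 5 DKO were megakaryocyte-like in at least 11 runs. They had no Kit UMI, 0.734 and 0.776 Ppbp UMIs per Pf4 UMI, and the 6 genes at 35249 and 56034 CPM. These values leaned on 1 barcode per library. It held 4004 of the 6144 Ppbp and 3698 of the 8376 Pf4 UMIs in WT. In DKO it held 3275 of the 5967 Ppbp and 2618 of the 7686 Pf4 UMIs. The remaining 20 WT and 11 DKO large barcodes were megakaryocyte-like in 1 to 10 runs and were all cKit+ progenitor-like in the run of highest modularity. In these, Pf4 was at 13022 and 13874 CPM and Itga2b at 906 and 1180 CPM, with both genes present in all 20 and all 11 barcodes. Ppbp was at 661 and 1039 CPM, or 0.0508 and 0.0749 UMIs per Pf4 UMI. It was absent from 8 of the 20 WT and 7 of the 11 DKO barcodes. The DKO level of Pf4 leaned on 1 barcode of 149278 UMIs, which held 4137 of the 6772 Pf4 UMIs. The 20 and 11 barcodes carried 25 and 19 UMIs of the stem cell factor receptor gene Kit (39.7 and 38.9 CPM). Kit was named after its values were seen and is a marker of the cKit+ progenitor-like class, so its presence follows from the split. Gp9 was at 127 and 143 CPM in them, against 782 and 1841 CPM in the barcodes placed in at least 11 runs. In both libraries Pf4 and Itga2b were thus present in these large progenitor-like barcodes, in which Ppbp was low or not detected at this depth. None of the 6 genes had entered the clustering, but at least 1 run had placed each barcode in a cluster named by megakaryocyte markers. Some of these markers followed the 6 genes closely. The presence of Pf4 and Itga2b in every such barcode was therefore in part set by this choice. In the shallower cKit+ progenitor-like cells that no run placed there, Pf4 was found in 25.4% of WT and 22.5% of DKO cells. Itga2b was likewise absent from some of those cells.

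The other genes of the platelet pathway were taken from fixed lists. In megakaryocyte-like cells none of the 3 genes of the GPIb-IX-V complex and its ligand was past 2-fold, with a median log2 ratio of 0.53: Gp1ba was at 207 CPM in WT and 298 CPM in DKO, Gp5 at 487 and 739 CPM, and Vwf, the ligand gene, at 642 and 807 CPM. None of 10 adhesion and collagen or podoplanin receptor genes was past 2-fold (median 0.37), among them Itgb3, the partner of Itga2b, at 1262 and 1825 CPM (log2 ratio 0.53, 0.44 to 0.62), the collagen receptor gene Gp6 at 287 and 345 CPM, and Clec1b, the podoplanin receptor gene, at 1014 and 1295 CPM. None of 9 measured genes for receptors of soluble agonists was past 2-fold (median 0.43).

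Of 14 measured genes for granule contents and membrane, 1 was past 2-fold, Thbs1, which encodes thrombospondin 1. It was at 1188 CPM in WT and 2957 CPM in DKO (log2 ratio 1.32, 1.24 to 1.39), while F13a1, the gene of coagulation factor XIII subunit A, was at 213 and 142 CPM (−0.58). None of 15 cytoskeleton and caveolae genes was past 2-fold (median 0.32). Cavin1, whose product forms the caveolar coat with Cavin2, was at 158 and 264 CPM (0.74, 0.50 to 0.98), and no UMI of Cav1 was found in the class in either library. None of 17 signalling and eicosanoid genes (median 0.40) and none of 15 transcription factor genes (median 0.29) was past 2-fold, with Gata1 at 160.0 and 223 CPM and Fli1 at 936 and 1074 CPM. Of 5 further CXC chemokine genes, most of them neighbours of Pf4 and Ppbp, 1 reached 20 CPM, Cxcl5, at 48.3 and 70.8 CPM (0.56, 0.09 to 1.01). Of 7 measured cell cycle genes 2 were lower by at least 2-fold, Mki67 (217 and 103 CPM, −1.07) and Ccnb1 (94 and 15 UMIs, −1.44). Ccnb1, Cxcl5 and Cav1 were under the level at which genes were otherwise named and were picked with their values known. None of 3 nuclear RNAs was past 2-fold, with Malat1 at 8015 and 4499 CPM (−0.83), and none of the 14 platelet genes later used to find platelet transcripts in other cells (median 0.38).

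The genes whose level followed that of the 6 most closely were named by correlation across 28 points, the 14 classes in 2 libraries, over 5790 genes. Only genes of at least 20 CPM in WT megakaryocyte-like cells, where the 6 are high, were ranked. The points share library and depth, and the values are descriptions. The 10 highest were Rbpms2 (Pearson r = 0.98), Treml1 (0.96), Gp1ba, Alox12, Gm10419, Gp5 and Gnaz (each 0.95), and Ankrd35, Mpig6b and Kcnj5 (each 0.94). Treml1 and Mpig6b encode receptors of the platelet surface and Alox12 the platelet lipoxygenase. Treml1, Gp1ba, Alox12 and Gp5 were also among the markers that named the megakaryocyte-like class, so their high r was in part set by that choice. Each of the 6 genes was compared in the same way with the mean of the other 5, and r was 0.96 for Pf4, 0.93 for Gp1bb, 0.92 for Cavin2, 0.90 for Gp9, 0.87 for Ppbp and 0.78 for Itga2b, the lowest.

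**Figure D3:**
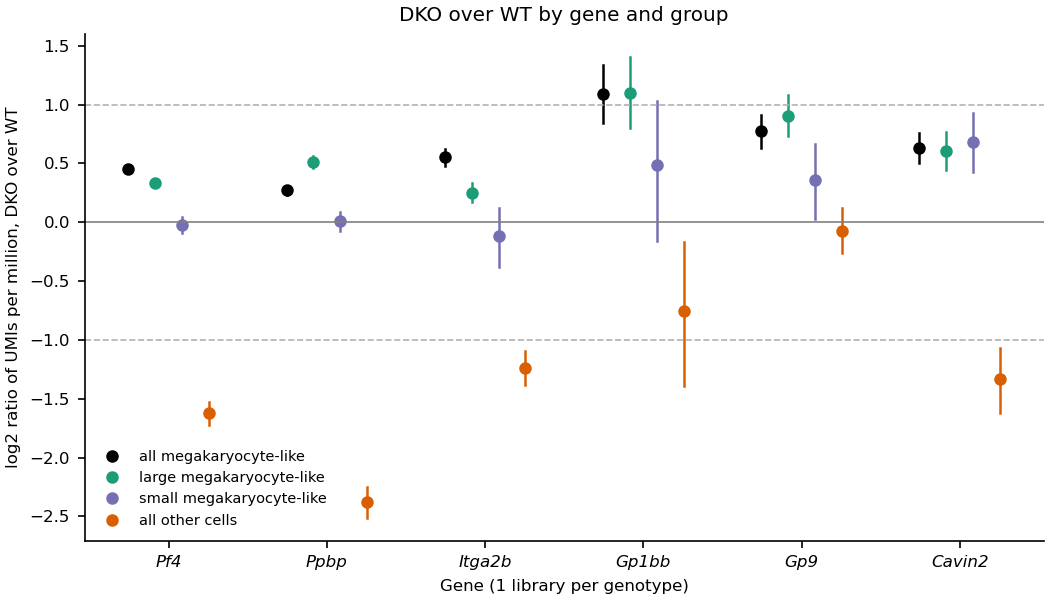
Log2 ratio of DKO over WT in CPM for each gene in all megakaryocyte-like, large, small and all other cells, with 95% counting intervals and dashed lines at 2-fold. All 6 genes were above 0 in the megakaryocyte-like class as a whole and in its large barcodes. Some values that are not plotted were below 0. These were Ppbp and Itga2b in the class with each cell thinned to 1000 UMIs, and Itga2b in large barcodes without the richest barcode of each library. Pf4, Ppbp and Itga2b were also below 0 in the class formed anew above the UMI threshold. Pf4, Ppbp and Itga2b were close to 0 in the small barcodes, and Pf4, Ppbp, Itga2b and Cavin2 were past 2-fold below 0 in other cells.

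Outside the megakaryocyte-like class the genes were rare, and their summed level was lower in DKO. Barcodes that any of the 20 runs placed in the class were left out of these values. Pf4 was at 31.4 CPM in WT and 10.2 CPM in DKO (log2 ratio −1.62, −1.72 to −1.53), Ppbp at 26.9 and 5.15 CPM (−2.38, −2.51 to −2.25), Itga2b at 11.2 and 4.76 CPM (−1.24) and Cavin2 at 3.32 and 1.31 CPM (−1.34). Gp1bb was at 0.555 and 0.325 CPM (−0.75, −1.39 to −0.17), and Gp9, at 3.996 and 3.80 CPM, had a log2 ratio of −0.07 (−0.26 to 0.12). Of the 6 genes, 4 were lower by at least 2-fold and none higher. Only Pf4 and Ppbp reached 20 CPM, in WT alone, and of 5577 genes that reached it in either library 0.932% were lower and 0.215% higher by at least 2-fold. By class, the sum of the 6 genes had log2 ratios between −2.26 in late erythroid-like and −1.27 in early erythroid-like cells in the blood lineages with most cells, with −1.91 in neutrophil-like, −1.84 in B cell-like and −1.56 in monocyte-like cells. It was −0.66 in macrophage-like, −0.17 (−0.38 to 0.03) in cKit+ progenitor-like and −0.13 (−0.39 to 0.12) in basophil or mast-like cells. No UMI of the 6 genes was seen in 70.0% of WT and 87.1% of DKO cells, and 10 or more were seen in 60 WT and 23 DKO cells. The WT cells were the shallower ones (median 4909 against 6929 UMIs).

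The share that each gene took of the 6-gene UMIs differed between classes. In WT late erythroid-like, neutrophil-like and B cell-like cells Pf4 made up 42.1%, 41.7% and 43.0% and Ppbp 42.4%, 41.4% and 42.6% of these UMIs. WT barcodes with 1 to 100 UMIs, which hold too little RNA to be called cells, had 43.8% (42.7% to 44.9%) Pf4 and 40.6% (39.5% to 41.7%) Ppbp. In these 3 classes of DKO the sum of the 6 genes was at 14.1, 19.4 and 28.2 CPM, against 67.5, 72.7 and 100.9 CPM in WT. The corresponding DKO barcodes of few UMIs were not analysed here.

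Basophil or mast-like cells (120 WT, 66 DKO) had Itga2b almost alone. It made up 85.9% (81.4% to 89.6%) of their 6-gene UMIs in WT and 92.6% (88.2% to 95.7%) in DKO, at 254.7 and 250.2 CPM (log2 ratio −0.02, −0.30 to 0.25), and was found in 74.2% and 80.3% of the cells. Thinned to 1000 UMIs, 32.8% of WT and 18.5% of DKO cells had it, against 0.908% of WT and 0 of 1631 DKO B cell-like cells (exact upper bound 0.226%). Gp1bb had no UMI in either library, where 3 UMIs would have given 2.98 and 3.75 CPM. Among the classes as formed, Itga2b was second highest in this class in both libraries.

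Early erythroid-like cells (2166 WT, 2053 DKO) had Gp9. Its level was 12.7 CPM (211 UMIs, 11.1 to 14.6) in WT and 14.1 CPM (336 UMIs, 12.6 to 15.7) in DKO, a log2 ratio of 0.15 (−0.10 to 0.41). Its share of the 6-gene UMIs was 18.5% in WT and 49.6% in DKO, with Pf4 at 23.1 and 6.55 CPM and Ppbp at 24.1 and 3.82 CPM. At most 6 Gp9 UMIs were seen in 1 cell. In late erythroid-like cells Gp9 was at 1.97 and 0.689 CPM. Its partner Gp1bb was at 0.603 and 0.252 CPM in the early erythroid-like cells.

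Macrophage-like cells (971 WT, 509 DKO) had Pf4 in excess of Ppbp. Pf4 was at 105 CPM (94.8 to 117) in WT and 95.9 CPM (82.7 to 111) in DKO, a log2 ratio of −0.13 (−0.40 to 0.12), and Ppbp was at 57.0 and 9.69 CPM (−2.49, −3.32 to −1.87). Pf4 made up 58.8% (54.8% to 62.7%) and 84.7% (79.3% to 89.2%) of the 6-gene UMIs. A single DKO cell held 56 of the 188 Pf4 UMIs, and over the cells with fewer than 10 UMIs of the 6 genes Pf4 was still at 68.4 CPM in WT and 58.2 CPM in DKO and Ppbp at 48.0 and 9.78 CPM.

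In cKit+ progenitor-like cells (236 WT, 80 DKO) Itga2b was at 83.1 and 78.7 CPM and Pf4 at 91.6 and 77.3 CPM, while Ppbp had 46 UMIs in WT and 1 in DKO. Itga2b was in 111 of the 236 and 40 of the 80 cells. The class was without 30 WT and 12 DKO barcodes that other runs called megakaryocyte-like, among them the 20 and 11 large ones described above. Pf4 was uneven, with 66 of 260 UMIs in 1 WT cell and 40 of 113 in 1 DKO cell, and over the cells with fewer than 10 UMIs of the 6 genes it was at 21.8 and 19.05 CPM, against 68.3 and 46.8 CPM of Itga2b. In stromal-like cells (325 WT, 124 DKO) Cavin2 was at 40.3 CPM (29.9 to 53.2) in WT and 53.4 CPM (35.8 to 76.7) in DKO. Among the classes as formed, this was its second level after the megakaryocyte-like cells. The high WT value of Itga2b there, 159 CPM, came from 1 barcode with 180 of the 197 UMIs. The stromal-like class may be mixed. At resolution 2.0 a cluster of 144 WT and 48 DKO barcodes, led by Mgp, Cxcl12 and Igfbp5 like part of this class, was named endothelial.

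Among the classes as formed, the order of the levels was alike in both libraries at its top. The cKit+ progenitor-like class was here without the 20 WT and 11 DKO large barcodes counted as megakaryocyte-like. Its place in the order therefore rests on that rule. In those barcodes Pf4 was at 13022 and 13874 CPM, Itga2b at 906 and 1180, Gp9 at 127 and 143, and Cavin2 at 351 and 502 CPM. Pf4 was next highest in macrophage-like cells, whose intervals overlapped those of cKit+ progenitor-like cells in both libraries, and Gp9 in early erythroid-like and cKit+ progenitor-like cells, whose intervals overlapped. Ppbp was next highest in WT stromal-like and macrophage-like cells (58.1 and 57.0 CPM), which did not differ beyond counting error. Below these, most neighbouring classes had overlapping intervals. Gp1bb was under 4 CPM in every class but the megakaryocyte-like one.

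**Figure D4:**
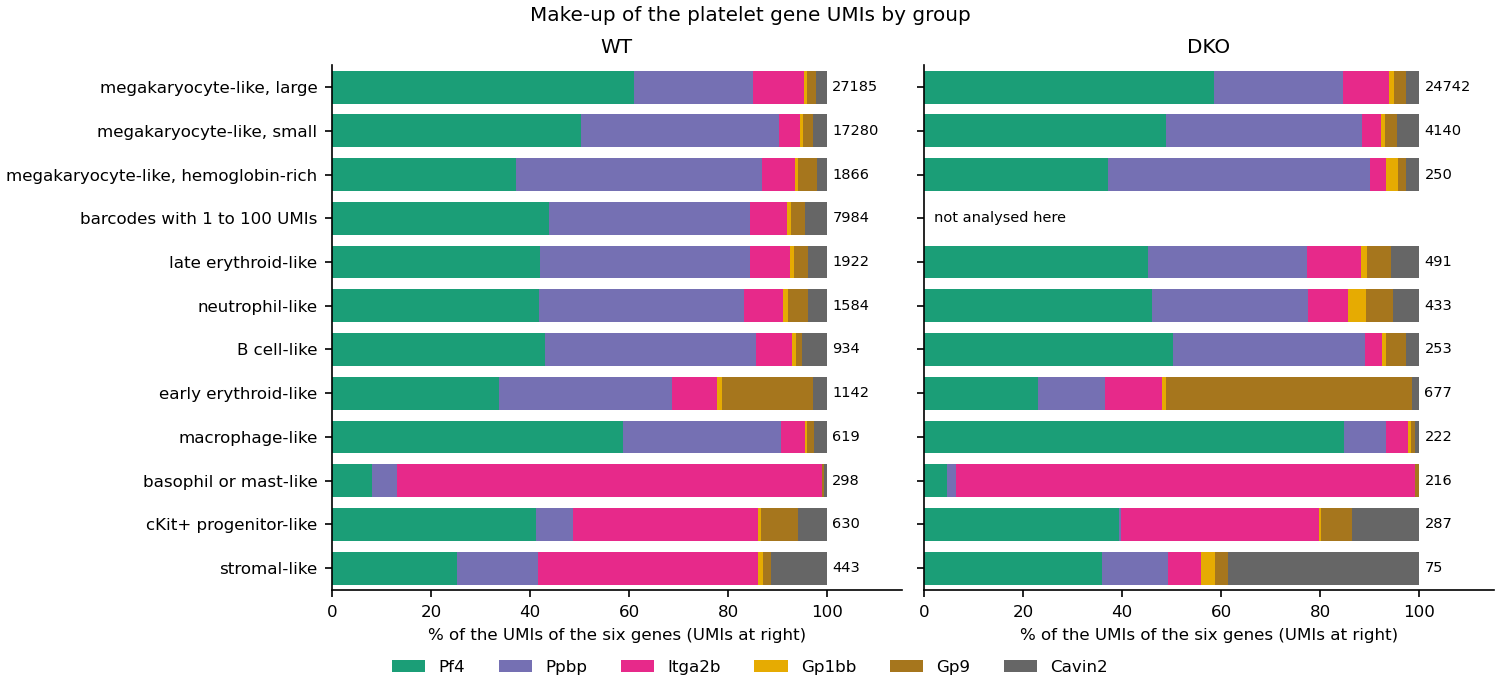
Percent of the 6-gene UMIs that came from each gene, by group, in WT (left) and DKO (right), with the number of UMIs at the right of each bar. Late erythroid-like, neutrophil-like and B cell-like WT cells had about equal parts of Pf4 and Ppbp, as had the barcodes with 1 to 100 UMIs, while Itga2b took 85.9% and 92.6% in basophil or mast-like cells and Gp9 18.5% and 49.6% in early erythroid-like cells.

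Other marrow cells with platelet transcripts were sought with 14 platelet genes that were not among the 6. At least 3 UMIs from at least 2 of these genes were found in 184 of 18306 other WT cells (1.01%, 0.866% to 1.16%) and in 88 of 13600 DKO cells (0.647%, 0.519% to 0.797%). The 6 genes were at 493 CPM in the WT and 171 CPM in the DKO cells found, against 67.9 and 22.1 CPM in the rest, and 42 of the WT and 33 of the DKO cells found had no UMI of the 6. Much of this was the progenitors, since 68 of the 236 WT and 35 of the 80 DKO cKit+ progenitor-like cells were among them. Without Nrgn, P2rx1 and Mmrn1, dropped after the values were seen, 38 WT cells (0.208%, 0.147% to 0.285%) and 22 DKO cells (0.162%, 0.101% to 0.245%) remained, with 1766 and 316 CPM. Of these, 10 WT and 4 DKO cells were cKit+ progenitor-like. Among B cell-like cells, 5 WT and 3 DKO cells were found by the shorter list, with 4943 and 5263 CPM of the 6 genes, and 9 WT and 2 DKO neutrophil-like cells had 1263 and 1099 CPM. The share found depended on the rule, and how the transcripts came to share a barcode with these cells was not tested.

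The 6 genes were over-represented in WT barcodes with 1 to 100 UMIs. These 1125245 barcodes held 4073556 UMIs, of which 7984 were from the 6 genes, 1960.0 CPM (1917 to 2003) or 4.24 times the 462 CPM of the called cells. The globin genes were at 0.518 times, S100a8 and S100a9 at 0.508 times, and Cd74, Cd79a and Cd79b at 0.581 times their level in called cells, whereas the 14 other platelet genes were at 4.38 times. Among 6160 genes ranked by this ratio Cavin2 was 22nd (6.38-fold, with 1 CPM added to both levels), Ppbp 30th (5.36-fold), Gp9 51st (4.54-fold), Itga2b 96th (3.54-fold) and Pf4 99th (3.48-fold), and Gp1bb, with 58 UMIs, was too low to be ranked. The level was higher in the larger of these barcodes, with 649 CPM at 1 to 50 UMIs and 2979 CPM at 51 to 100 UMIs.

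In barcodes with 51 to 100 UMIs, Ppbp was found in 12.3% (11.03% to 13.6%) of 2618 barcodes with a Pf4 UMI and in 9.28% (8.93% to 9.65%) of 25067 without one, at median depths of 86 and 85 UMIs. The 6828 UMIs of the 6 genes lay in 20.7% of the 27685 barcodes of this size. No barcode up to 100 UMIs had more than 8.

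**Figure D5:**
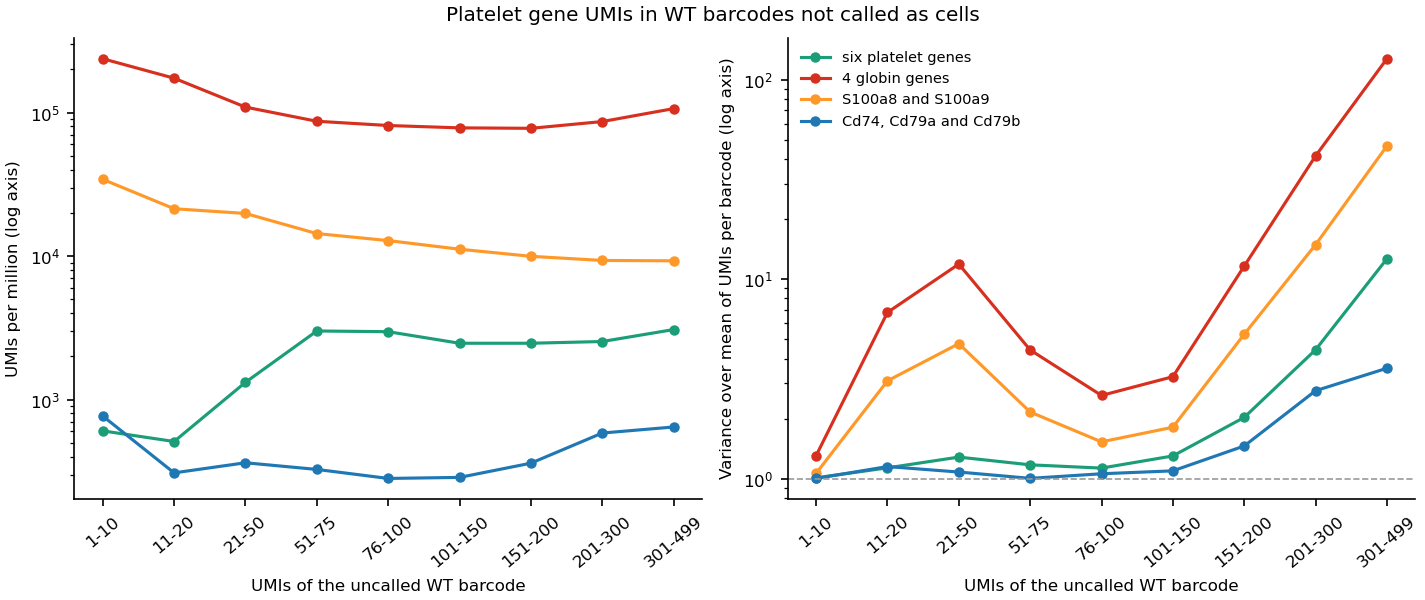
Level in CPM (left, log axis) and variance over mean of UMIs per barcode (right, log axis) of the 6 genes and 3 comparison gene groups in WT barcodes that were not called as cells, by UMIs per barcode; the dashed line marks a variance equal to the mean. The 6 genes were at 605 CPM in barcodes of 1 to 10 UMIs and at 3005 CPM in those of 51 to 75 UMIs, where the globin genes were at 237298 and 87008 CPM, and the variance over mean of the 6 genes was 1.13 at 76 to 100 UMIs and 12.6 above 300 UMIs. The ratio also depends on the mean, which differed between gene groups, so the groups are not ranked by it.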

How the data were processed

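Single-cell RNA from the bone marrow of 1 WT and 1 DKO mouse was analysed. The authors made the deposited UMI counts from Chromium 3′ v3 reads with Cell Ranger (7.1.0 per the file headers; mm10 per the labels). The count tables are raw and whole-numbered, for 32285 genes.

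WT cells were called by a UMI threshold (4869) plus a multinomial test, from 500 UMIs up, against barcodes of at most 100 UMIs (false discovery rate 0.01). DKO cells were used as deposited. Barcodes with over 20% mitochondrial UMIs and doublets by a Scrublet score above the DKO threshold (0.226; 348 WT and 208 DKO barcodes) were left out. The WT threshold (0.628) had marked 0 cells.

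The 6 genes were left out of clustering (2000 variable genes, 30 components, 15 neighbours, Leiden resolution 1.0). Components and neighbour weights were rounded to 3 decimals and 20 runs were made (25 to 31 clusters). Other classes were named from the run of highest modularity, and names end in "-like". A name needed a mean log2 marker excess of at least 0.5, a limit set after values were seen. UMIs were summed per class and library. Levels carry exact Poisson, shares Clopper-Pearson and ratios (1 count added) conditional binomial 95% intervals. No test between genotypes was possible. Named genes were the 6, genes of the fixed lists of at least 100 CPM in megakaryocyte-like cells, those past 2-fold, and the 10 genes of highest correlation with the 6. The genes and lists were chosen with earlier results of these data known. The 20-run rule, the rounding, the strata and the shorter platelet list were set after values were seen. Gene positions are from GENCODE (GRCm38).

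Clustering used scanpy 1.11.5 with python-igraph 0.11.9 and scikit-learn 1.9.0, intervals scipy 1.17.1, and figures matplotlib 3.10.9, under Python 3.11.15 with pandas 2.3.3 and numpy 2.4.6.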

Additional observations from a re-analysis of the deposited data

Results flagged for a closer look

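The sum of the 6 genes differed in opposite directions in different cells, with a log2 ratio of DKO over WT of 0.42 in megakaryocyte-like cells and of −1.60 in all other cells. With 1 library per genotype this difference was not tested. In megakaryocyte-like cells the summed level did not differ beyond counting error with each cell thinned to 1000 UMIs (27427 CPM in WT, 27328 CPM in DKO). Barcodes above the UMI threshold were clustered anew, into a class of 418 WT and 178 DKO barcodes, and there it was lower in DKO (4193 and 3948 CPM). Under the other settings tried the summed level was higher in DKO. By kind of barcode, its log2 ratio was 0.39 (0.37 to 0.42) in the large and 0.02 (−0.03 to 0.07) in the small barcodes. In the hemoglobin-rich ones it was −0.60 (−0.80 to −0.42), with 4823 CPM in WT and 3163 CPM in DKO. The neutrophil gene-rich ones had 6 UMIs of the 6 genes in DKO, too few to compare.

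WT barcodes that were not called as cells also held these genes, and those above 100 UMIs were outside the comparisons between cell classes. The 49107 uncalled WT barcodes with more than 100 and fewer than 500 UMIs held 19814 UMIs of the 6 genes, 2562 CPM (2527 to 2598) or 5.55 times the called cells. Among them, 146 barcodes had 10 or more UMIs of the 6 genes. They had a median of 342.5 UMIs in all, 4.93% of their 49998 UMIs came from the 6 genes, and Malat1 was at 1000.04 CPM. Ppbp per Pf4 was 0.918 in them and 0.796 in the small WT megakaryocyte-like barcodes. It was 0.928 in WT barcodes with 1 to 100 UMIs and 0.971 in those with 51 to 100 UMIs, so this ratio does not set the 146 barcodes apart. Ppbp was found in 23.3% (22.2% to 24.4%) of barcodes of this size with a Pf4 UMI and in 11.9% (11.6% to 12.2%) of those without one, at median depths of 140.0 and 132 UMIs. The 699 uncalled WT barcodes with 500 UMIs or more had 440.0 CPM (393 to 492), 0.953 times the called cells.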

How the results depend on the processing

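No paired analysis was possible because each group holds 1 library. Of 185 values under other settings, 75 moved by less than their counting interval (counts of genes by less than 1.5 times) and 110 moved further. Of 60 log2 ratios of the 6 genes in megakaryocyte-like cells 55 stayed above 0. Causes were not tested. The strata, the single-run and every-run classes, the left-out barcodes and the shorter platelet list were added after the data were seen.

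Summed levels (WT, then DKO, in CPM) and log2 ratios in megakaryocyte-like cells moved as follows. Barcodes above the order-of-magnitude UMI threshold were clustered anew, into a class of 418 WT and 178 DKO barcodes. In it the sums were 4193 and 3948, and the ratios −0.077 (Pf4), −0.10 (Ppbp), −0.29 (Itga2b), 0.58 (Gp1bb), 0.30 (Gp9) and 0.12 (Cavin2). With doublets kept the sums were 20647 and 28543, and the ratios 0.50 (Pf4) and 0.31 (Ppbp). With a 10% mitochondrial limit they were 24851 and 39257, with 0.81 (Pf4), 0.35 (Ppbp), 0.87 (Itga2b) and 0.79 (Cavin2). At resolution 2.0 they were 22089 and 37571, with 0.84 (Pf4), 0.57 (Ppbp), 0.88 (Itga2b), 1.36 (Gp1bb), 1.10 (Gp9) and 0.96 (Cavin2). Scaled without hemoglobin genes they were 26184 and 32218, with 0.33 (Pf4), 0.15 (Ppbp) and 0.43 (Itga2b). Thinned to 1000 UMIs they were 27427 and 27328, with 0.022 (Pf4), −0.11 (Ppbp), −0.077 (Itga2b), 0.71 (Gp1bb) and 0.094 (Gp9). In the single run of highest modularity they were 27996 and 43301, with 0.60 (Pf4), 0.57 (Ppbp), 0.78 (Itga2b), 1.11 (Gp9) and 0.82 (Cavin2). For barcodes placed in each of the 20 runs they were 33242 and 48814, with 0.55 (Pf4), 0.47 (Ppbp), 0.69 (Itga2b) and 1.03 (Gp9). Without the hemoglobin-rich and neutrophil gene-rich barcodes they were 27777 and 32320.2, with 0.22 (Pf4), 0.11 (Ppbp), 0.32 (Itga2b) and 0.44 (Cavin2). Without the richest barcode of each library they were 19071 and 24985, with 0.52 (Pf4), 0.086 (Ppbp), 0.17 (Itga2b) and 0.63 (Gp9).

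Genes past 2-fold numbered 19 higher and 145 lower above the UMI threshold, 565 higher with the 10% limit, 490.0 higher at resolution 2.0, 121 higher without hemoglobin scaling, 634 lower in the single run and 687 lower in each run. With no filter beyond 1 UMI 2012 were higher and 1132 lower, and with at least 100 CPM 18 and 55. The megakaryocyte-like share was 4.46% and 2.34% above the threshold, 1.73% and 0.701% in each run, and in WT 2.47% at resolution 2.0 and 2.01% in the single run. Other cells with platelet transcripts were 2.05% and 0.912% with at least 2 UMIs, 0.459% and 0.346% with at least 5, 0.208% and 0.162% by the shorter list and 0.0409% and 0.0234% thinned. They were 0.377% of DKO cells above the threshold, and in WT 1.17% with the 10% limit and 1.18% in the single run.

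Ppbp made up 26.3% and 26.0% of the 6-gene UMIs in megakaryocyte-like cells above the threshold, 38.8% and 31.4% with the 10% limit, 36.0% and 31.4% at resolution 2.0, 38.5% and 37.0% in the single run and 39.1% and 36.9% in each run. Gp9 in early erythroid-like cells was 24.3% and 57.9% above the threshold and 22.8% in WT at resolution 2.0. Pf4 in macrophage-like cells was 95.1% in DKO above the threshold, and in WT 63.5% with doublets kept and 63.8% with the 10% limit. Barcodes of at most 100 UMIs were at 649 CPM (1 to 50 UMIs), 2979 CPM (51 to 100 UMIs) and 2293 CPM (scaled without hemoglobin genes). Counting error limits Gp1bb most, which had under 300 UMIs in the class in each library.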
